A study of Mus musculus with 10 samples.

Results

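Regulatory T cells (Tregs) from the lungs of mice whose Tregs lack Crlf2 were compared with lung Tregs of control mice. The comparison used the 6 libraries, of 10 in the series, that the labels give to lung Tregs of either genotype, 3 per genotype, and it covered all genes. The other 4 libraries are cultures of spleen Tregs and were not used here, except to choose the transcript that stands for each gene and in 1 alternative fit. All 6 samples were of the C57BL/6J strain, were labelled as allergic lung tissue and came from animals immunized with ovalbumin (OVA), a protein antigen that causes allergic airway inflammation in sensitized mice. Control Tregs came from Foxp3YFP-Cre mice, which the labels call wild-type, and deleted Tregs from Crlf2fl/fl Foxp3YFP-Cre mice, labelled as a conditional knock-out. Both genotypes therefore carry the Cre recombinase driven from the Foxp3 gene, and the control lacks the floxed Crlf2. Deletion takes place in cells that express Foxp3, so other lung cells keep an intact Crlf2. The sources used here do not state the age of the mice, any pooling of mice, the floxed exons or the sort gate.

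Crlf2 encodes the ligand-binding chain of the receptor for thymic stromal lymphopoietin (TSLP), a cytokine that airway epithelium releases and that drives allergic inflammation. The chain pairs with the interleukin-7 receptor chain encoded by Il7r and signals through the kinases Jak1 and Jak2 to the factor Stat5. Tregs are CD4 T cells that express Foxp3 and restrain other immune cells, and those that settle in tissues carry effector molecules such as interleukin-10 and homing receptors that circulating Tregs lack. Interferons are a separate family of cytokines that signal through factors such as Stat2 and Irf9 and induce antiviral genes.

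The 6 libraries held 1439675 to 18349039 reads assigned to genes, with control 2 the shallowest and Crlf2-deleted 3 the deepest. Levels are read counts scaled to the size and composition of each library, in counts per 1e6 (CPM), and a gene was called when its adjusted p was under 0.05 in edgeR's quasi-likelihood test across all genes. Treg identity was checked first. Foxp3, the factor that defines Tregs, was at 474, 437 and 200.1 CPM in control libraries 1, 2 and 3 and at 386, 489.6 and 427 CPM in Crlf2-deleted libraries 1, 2 and 3, and Cd4 at 468, 474 and 309 CPM and 626, 614 and 582 CPM. The CD8 chain gene Cd8a, absent from CD4 cells, was at or below 0.801 CPM in 5 libraries and at 9.84 CPM in control 3. The other CD8 chain gene, Cd8b1, was above that level in every library. It was at 16.3, 9.58 and 28.7 CPM in the controls and at 7.79, 22.3 and 14.5 CPM without Crlf2. Control 3 thus had the lowest Foxp3 and Cd4 and the highest Cd8a of the 6.

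RNA of other lung cells differed between libraries, most of all in control 3. Hbb-bs, a haemoglobin gene of red cells, was at 31730 CPM in control 3 and at 341 to 1298 CPM in the others. Marker lists of natural killer (NK) cells, B cells, neutrophils, dendritic cells and MHC class II genes summed to 428, 388, 765, 349 and 5388 CPM in control 3, against at most 25.3, 30.6, 129, 89.2 and 824 CPM in the other 5. Macrophage genes followed another pattern. Their monocyte and interstitial macrophage list summed to 368 and 515 CPM in control 1 and 2, to 4412 CPM in control 3 and to 992, 994 and 1005 CPM in the Crlf2-deleted libraries. Without control 3 its median log2 fold change was 1.92 and 3 of 9 genes were called higher. Lyz2, a lysozyme gene of these cells, was at 231, 309 and 3748 CPM in the controls and at 816, 818 and 837 CPM without Crlf2. Chil3, an abundant alveolar macrophage gene, was at 131 and 388 CPM in control 1 and 2, at 3780 CPM in control 3 and at 1478, 1525 and 1699 CPM in the Crlf2-deleted libraries, while Marco, which defines these macrophages, was at 2.37 CPM in control 3 and at or below 0.261 CPM elsewhere. Scgb1a1, the secretoglobin of airway club cells, was highest in control 1 (76750 CPM) and lowest in Crlf2-deleted 3 (2168 CPM). The first principal component (32.3% of the variance) had the controls at -68.7, -14.8 and -34.3. It had the Crlf2-deleted libraries at 33.8, 24.2 and 59.7. The second, with 29%, set control 3 (-70.4) against control 2 (69.7), the shallowest library. In such bulk libraries, fewer cells of a type and less RNA per cell cannot be told apart. The part of other cells' RNA in the results was not tested. For many genes and lists below whose calls, or the sign of whose median, changed without control 3, the value without it is given as well.

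**Figure D1:**
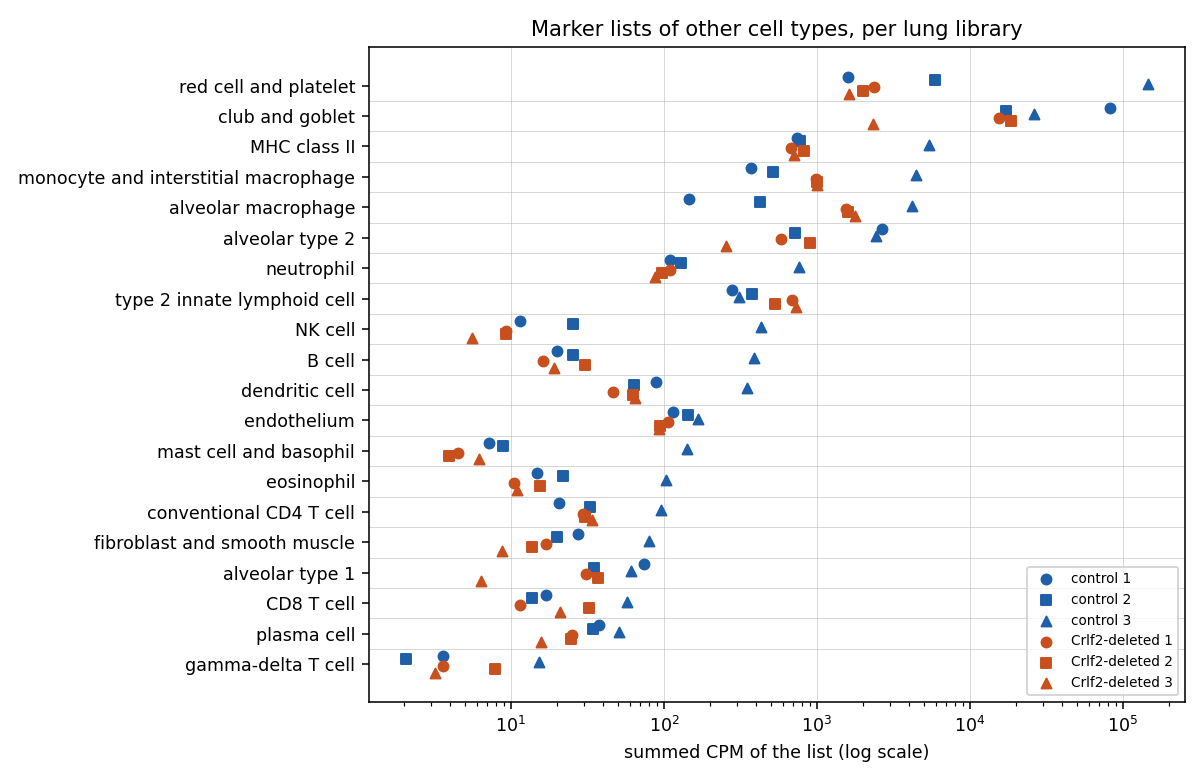
Summed CPM (log axis) of 20 marker lists of other cell types in each of the 6 lung libraries. Control 3 (blue triangles) is the highest library for red cell, MHC class II, macrophage, neutrophil, NK cell and B cell lists, for instance 428 CPM for NK cells against at most 25.3 CPM in the others.

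Of 12717 genes tested, 227 (1.79%) were called, 98 (0.771%) of them higher and 129 (1.01%) lower in Crlf2-deleted Tregs. The median log2 fold change over all tested genes was -0.04, and 6897 of the 12717 had negative values. In each of the 227 the 3 control libraries did not overlap the 3 Crlf2-deleted ones, as was the case for 1329 (10.5%) of all tested genes with higher and 1471 (11.6%) with lower levels without Crlf2. The number of calls depended on single libraries. It was 532 (4.11% of 12931) without control 3, 124 without Crlf2-deleted 2, 33 and 22 without control 1 or 2, and 4 and 7 without Crlf2-deleted 1 or 3. In all 6 of these fits 4 genes kept their call: Crlf2, Lag3, Apobec3 and Cib2. With library totals as the only scaling, 137 genes were higher and 57 lower and the median of all genes lay 0.18 higher on the log2 scale. With the authors' RPKM values, for which that median lay 0.25 higher, 762 were higher and 94 lower (limma), so directions below are relative to the composition-scaled median.

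The deleted gene itself was 17.9-fold lower. Crlf2 lies on the minus strand of chromosome 5 (109554709 to 109559128, mm10). It was at 92.8, 146 and 105 CPM in the control libraries and at 9.06, 6.73 and 3.55 CPM in the Crlf2-deleted ones (log2 fold change -4.16, SE 0.36, adjusted p = 0.00465). Every Crlf2-deleted library lay far below every control library, and none was at 0. The floxed exons are not stated, so how many of these reads came from intact and how many from shortened transcripts cannot be told apart. Il7r, the partner chain of the TSLP receptor and the receptor chain for interleukin-7, was at 105, 151 and 109 CPM in the controls and at 303, 261 and 319 CPM without Crlf2 (log2 fold change 1.29, SE 0.17, adjusted p = 0.0161). The lowest Crlf2-deleted library was thus above the highest control, as in every gene called higher. Per transcript length the levels were 14.2 RPKM for Crlf2 and 6.38 RPKM for Il7r in the controls, and 1.07 and 21.0 RPKM in the Crlf2-deleted libraries.

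Among the feedback inhibitors of cytokine signalling in the axis list, 2 were lower. Socs1 is also a member of the interferon-gamma list below, and the signal behind its lower level was not tested. Socs1, which blocks JAK kinases, was at 453, 389 and 277 CPM in the controls and at 169, 176 and 169 CPM in the Crlf2-deleted libraries (log2 fold change -1.12, SE 0.18, adjusted p = 0.0264). Socs3, which restrains signalling by interleukin-6 family receptors, went from 419, 326 and 424 CPM to 227, 257 and 249 CPM (log2 fold change -0.68, SE 0.13, adjusted p = 0.0492). Cish and Socs2, the inhibitors that Stat5 induces most directly, were not called. Cish was at 557, 528 and 299.9 CPM against 413, 378 and 459.6 CPM, overlapping (log2 fold change -0.15), and Socs2 at 192, 178 and 103 CPM against 118, 99.8 and 118 CPM (log2 fold change -0.49, adjusted p = 0.348). In both genes control 3 was the lowest control. Without it Socs2 passed the test (-0.72, adjusted p = 0.0275) and Cish did not (-0.38, adjusted p = 0.123).

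None of the other chains and kinases of the axis was called with all 6 libraries. Among them, Il9r, Jak3 and Il15ra had log2 fold changes of 0.87, 0.53 and -0.54. The transducers Jak1, Jak2, Stat5a and Stat5b had log2 fold changes of 0.18, -0.39, -0.26 and -0.11 (adjusted p = 0.452, 0.462, 0.503 and 0.829). The common gamma chain Il2rg (-0.13) and the interleukin-2 receptor chains Il2ra (-0.44) and Il2rb (-0.25) were also not called. Il2ra was lowest in control 3 (129.8, 193 and 74.9 CPM in the controls against 103, 91.4 and 95.2 CPM), and its log2 fold change without that library was -0.72 (adjusted p = 0.068). Il4ra, the receptor chain for interleukin-4 and -13, was at 476, 481 and 357 CPM and 283, 308 and 308 CPM, did not overlap and missed the threshold (log2 fold change -0.54, adjusted p = 0.101), and it passed without control 3 (-0.67, adjusted p = 0.0125). Myc, which encodes a transcription factor of cell growth, was just outside the threshold at 128, 84.2 and 127 CPM against 59.0, 64.8 and 49.3 CPM (log2 fold change -0.99, adjusted p = 0.0506). Over the 27 tested genes of the axis 1 was called higher and 3 lower, and the median log2 fold change was -0.26 beside -0.04 over all genes. The sign of that median turned to 0.14 on the RPKM scale. Leaving out any library but control 3 left 0 or 1 higher and 1 lower, and without control 3 it was 1 higher and 5 lower.

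Genes that interferons induce held the most calls of any list, all lower without Crlf2. Of 63 tested antiviral interferon response genes 31 were called lower in Crlf2-deleted Tregs, with a median log2 fold change of -1.62. In 59 of the 63 the groups did not overlap, all of them lower, beside 11.6% lower and 10.5% higher among all tested genes. The summed level of the list was 13619, 13495 and 9353 CPM in the controls and 3773, 5596 and 3780 CPM in the Crlf2-deleted libraries. Isg15, a ubiquitin-like antiviral protein, was at 189, 174 and 111 CPM in the controls and at 21.0, 38.8 and 20.6 CPM without Crlf2 (log2 fold change -2.56, SE 0.31, adjusted p = 0.0129). Crlf2-deleted 2 was the highest of its group here and in the next 3 genes. Rsad2, which encodes viperin, an enzyme that makes a chain-terminating nucleotide, was at 79.3, 95.1 and 90.9 CPM against 10.3, 20.3 and 10.7 CPM (log2 fold change -2.68, SE 0.28, adjusted p = 0.00913). Bst2, tetherin, which holds budding virus at the cell surface, was at 444, 421 and 281 CPM against 83.6, 109 and 61.1 CPM (log2 fold change -2.18, SE 0.25, adjusted p = 0.0119). Oas3, which makes the messenger that activates RNase L, fell from 347, 330.5 and 236 CPM to 49.4, 83.5 and 41.8 CPM (log2 fold change -2.39, SE 0.28, adjusted p = 0.0125). In each of the 4 genes the groups did not overlap, as in all 227 called genes.

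Named effectors and sensors of the antiviral response were lower, as was 1 of the factors that transmit the interferon signal. Stat2, the subunit of the interferon-stimulated factor ISGF3, was at 235, 211 and 172 CPM in the controls and at 81.4, 94.8 and 77.6 CPM without Crlf2 (log2 fold change -1.28, SE 0.16, adjusted p = 0.0131). Irf9, its DNA-binding partner, was at 166, 151 and 133 CPM against 74.9, 106 and 85.1 CPM and was not called (log2 fold change -0.76, adjusted p = 0.0695), and it passed without control 3 (-0.84, adjusted p = 0.0357). The RNA sensor gene Dhx58 fell by 2.14 on the log2 scale (SE 0.39, adjusted p = 0.0458) and the nucleic acid sensor gene Zbp1 by 2.11 (SE 0.32, adjusted p = 0.0293). The nuclease gene Isg20 fell by 2.06 (SE 0.24), the chaperone gene Rtp4 by 2.28 (SE 0.40), the pro-apoptotic gene Xaf1 by 1.74 (SE 0.25) and Ly6a, which encodes the surface antigen Sca-1, by 1.59 (SE 0.21). Rtp4 was likewise highest in Crlf2-deleted 2 of its group, at 147, 192 and 93.7 CPM in the controls and 19.9, 46.3 and 21.98 CPM without Crlf2. Among the 15 largest falls at 5 RPKM or more were also genes outside the lists that interferons are known to induce. Apobec3, a cytidine deaminase that restricts retroviruses, went from 269, 212 and 187 CPM to 48.7, 39.2 and 30.2 CPM (log2 fold change -2.51, SE 0.22, adjusted p = 0.00465), and Ube2l6, the enzyme that attaches Isg15 to proteins, from 158, 148 and 259.5 CPM to 31.6, 60.4 and 45.4 CPM (log2 fold change -2.05, SE 0.29, adjusted p = 0.0213).

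**Figure D2:**
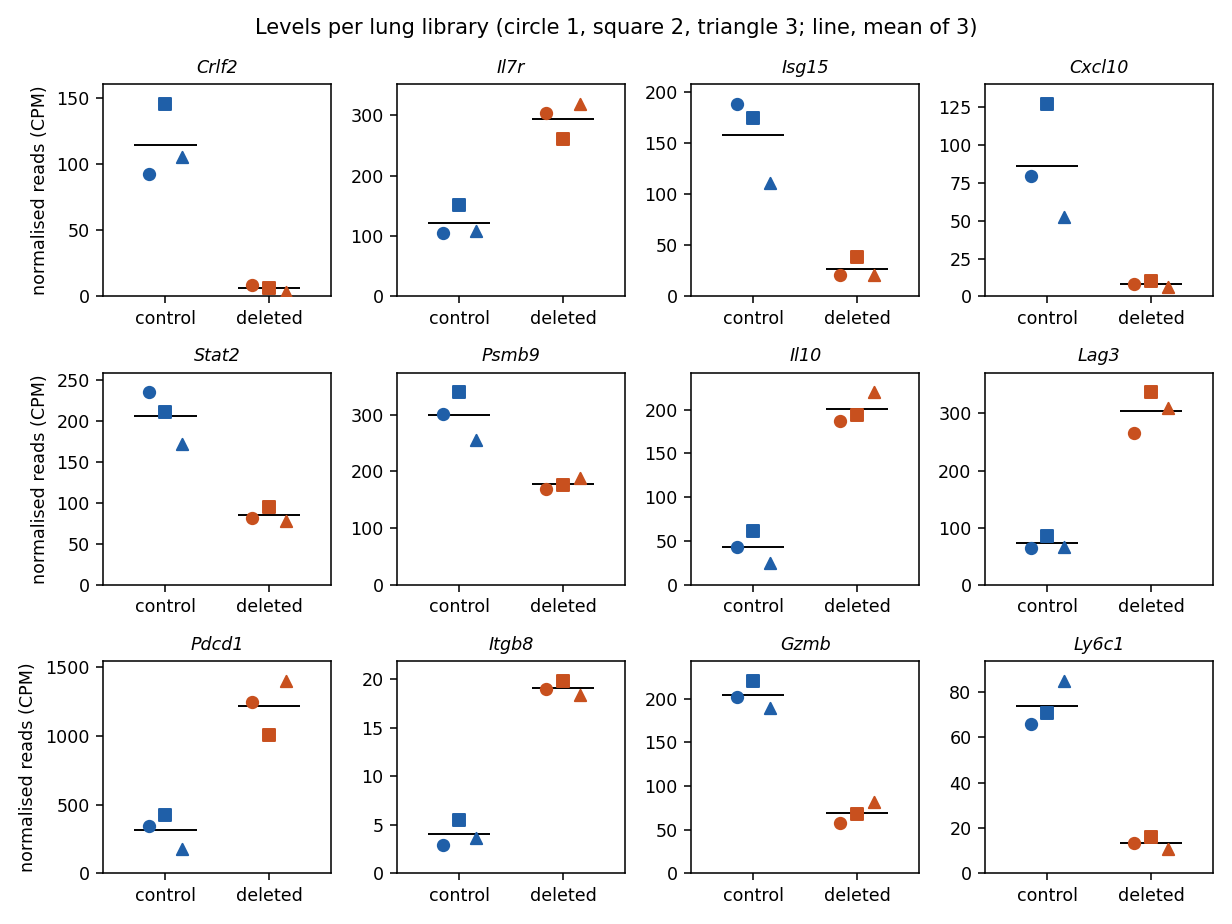
CPM per library for 12 genes, with control libraries in blue, Crlf2-deleted libraries in orange and the mean of 3 as a line. All 12 are called genes, and the groups do not overlap in any called gene. Isg15 is at 189, 174 and 111 CPM in the controls and at 21.0, 38.8 and 20.6 CPM in the Crlf2-deleted libraries.

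The count of antiviral calls changed with the library left out, while the median kept its sign. Without control 1, 2 or 3 it was 3, 0 and 43 genes lower, and without Crlf2-deleted 1, 2 or 3 it was 0, 34 and 0. The median stayed between -1.90 and -1.49 in these 6 fits, and it was -0.85 on the RPKM scale, where a pseudocount of 1 compresses low levels. Most marker lists of other cells were highest in control 3. The summed level of the antiviral genes was lowest there among the controls, as were Foxp3 and Cd4. The median of the antiviral genes was -1.78 without control 3. The part of other cells' RNA in this result was not tested.

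Genes of the interferon-gamma program showed the same direction. Of 25 tested genes for interferon-inducible GTPases, chemokines and their regulators, 12 were called lower (median log2 fold change -1.36). Cxcl10, a chemokine that attracts cells with the receptor Cxcr3, was at 79.8, 127 and 52.2 CPM in the controls and at 8.38, 10.4 and 6.32 CPM without Crlf2 (log2 fold change -3.35, SE 0.36, adjusted p = 0.00925). Gbp2, a guanylate-binding protein that attacks the vacuoles of intracellular pathogens, was at 304, 296 and 165 CPM against 42.2, 42.4 and 40.2 CPM (log2 fold change -2.61, SE 0.24, adjusted p = 0.00506). Its 3 Crlf2-deleted libraries lay close together, unlike those of the antiviral genes above. The GTPase genes Iigp1 and Irgm1 fell by 3.18 and 1.53 (SE 0.37 and 0.19, adjusted p = 0.012 and 0.0132). Tgtp1 and Tgtp2, near-identical neighbours between which reads may be split, fell by 2.24 and 2.07. Serpina3g, a protease inhibitor of activated T cells, fell by 1.25 (SE 0.16). The number called lower was 3, 2 and 20 without control 1, 2 or 3 and 0, 13 and 0 without Crlf2-deleted 1, 2 or 3.

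The start regions of these genes were examined because many carry the DNA element to which ISGF3 and the interferon regulatory factors bind. The 250 bases upstream of the RefSeq transcription start (GRCm38.p6) are printed 5′ to 3′ on the strand of the gene for 4 genes that were called lower, 2 from each list. Capitals mark every match to GAAANNGAAA, the core of that element, or to its reverse complement TTTCNNTTTC.

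Isg15, chr4:156200819-156201068, minus strand: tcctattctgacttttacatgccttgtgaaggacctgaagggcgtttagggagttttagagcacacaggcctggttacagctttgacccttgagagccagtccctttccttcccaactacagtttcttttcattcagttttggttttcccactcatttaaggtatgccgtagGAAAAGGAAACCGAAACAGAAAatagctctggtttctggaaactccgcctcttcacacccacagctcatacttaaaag

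Rsad2, chr12:26456453-26456702, minus strand: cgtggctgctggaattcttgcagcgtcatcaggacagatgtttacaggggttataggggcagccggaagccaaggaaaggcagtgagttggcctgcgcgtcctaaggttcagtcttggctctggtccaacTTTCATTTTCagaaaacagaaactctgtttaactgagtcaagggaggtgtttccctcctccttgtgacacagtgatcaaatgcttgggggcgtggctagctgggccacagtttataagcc

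Gbp2, chr3:142620413-142620662, plus strand: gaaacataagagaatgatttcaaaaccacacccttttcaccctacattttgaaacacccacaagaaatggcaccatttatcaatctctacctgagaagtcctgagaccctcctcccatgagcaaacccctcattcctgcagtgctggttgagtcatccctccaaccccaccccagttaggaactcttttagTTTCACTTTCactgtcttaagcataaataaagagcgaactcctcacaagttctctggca

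Cxcl10, chr5:92348890-92349139, minus strand: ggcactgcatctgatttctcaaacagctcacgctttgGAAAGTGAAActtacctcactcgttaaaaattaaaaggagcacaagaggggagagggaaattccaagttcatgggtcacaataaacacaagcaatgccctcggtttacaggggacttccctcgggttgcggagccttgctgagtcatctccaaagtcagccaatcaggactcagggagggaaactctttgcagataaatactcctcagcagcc

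Isg15 held 3 overlapping matches, which began 66 to 78 bases before the start, and Gbp2 held 1 at 59 bases. The single matches in Rsad2 and Cxcl10 began 120 and 213 bases before the start. In windows of 300 bases (250 before to 50 after the start), 1079 of 27025 RefSeq genes (3.99%) held a match on either strand. Among tested genes with a window it was 359 of 9417 (3.81%). The share was 27 of 103 (26.2%) for genes called lower and 2 of 73 (2.74%) for genes called higher. It was 21 of 41 in the antiviral list and 12 of 16 in the interferon-gamma list, which were assembled from genes known to respond to interferons. A match is a description of the sequence and not evidence of binding, and a window without one says only that these letters are not in it.

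Some genes for peptide presentation by MHC class I were lower as well. Of 25 tested genes 5 were called lower (median log2 fold change -0.57). In 19 the groups did not overlap, all of them lower, beside 11.6% lower and 10.5% higher among all tested genes. Psmb9, an immunoproteasome subunit that interferons induce, was at 302, 339 and 256 CPM in the controls and at 168, 175 and 189 CPM without Crlf2 (log2 fold change -0.75, SE 0.14, adjusted p = 0.0397). Psmb10, another such subunit, was at 417, 333 and 305 CPM against 200.1, 194.7 and 208 CPM (log2 fold change -0.81, SE 0.14, adjusted p = 0.0337). Psmb8, the third subunit, missed the threshold (log2 fold change -0.58, SE 0.12, adjusted p = 0.0527). The proteasome activator gene Psme2, the peptide transporter gene Tap1 and the tapasin gene Tapbp, which loads peptides, fell by 0.74, 0.99 and 0.71 (SE 0.14, 0.18 and 0.13). The class I heavy chain gene H2-D1 was at 7501, 7483 and 5920.0 CPM against 4477, 4599 and 5252 CPM and was not called (log2 fold change -0.54, SE 0.12, adjusted p = 0.0723), and class I genes are near-identical, so their reads may be split.

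In the constitutive proteasome edgeR called 0 subunits, although 4 had an unadjusted p under 0.05, and DESeq2 called 0 lower and 0 higher. The 31 tested genes had a median log2 fold change of -0.16, with values between -0.49 and 0.23. Psma2, a core subunit, was at 146, 145 and 145 CPM against 119, 107 and 108 CPM (log2 fold change -0.39, adjusted p = 0.154). The difference between the 2 proteasome lists was not tested. On the RPKM scale the constitutive median was 0.26 and that of the class I list -0.11. Leaving out control 3 raised the class I count to 16 lower, Psmb8 and H2-D1 among them (adjusted p = 0.00804 and 0.00911), and leaving out any other library gave 0.

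Receptors and sensors of interferon held a single call with all 6 libraries. Of 17 tested genes 1 was called, and the median log2 fold change was -0.06, which turned to 0.17 without control 3 and to 0.27 on the RPKM scale. Without control 3 the list held 1 called lower and 2 higher, Il10rb and Il27ra (adjusted p = 0.0398 and 0.0477). The type I interferon receptor chains Ifnar1 and Ifnar2 were at 148, 162 and 147 CPM and 80.4, 105 and 80.2 CPM in the controls and at 199.1, 209.9 and 182 CPM and 109, 136 and 113 CPM without Crlf2 (log2 fold change 0.37 and 0.45, adjusted p = 0.174 and 0.228). The kinase gene Tyk2, which serves that receptor, had a log2 fold change of 0.45 (adjusted p = 0.184). The gene called lower was Tmem173, which encodes STING, the adaptor that links cytosolic DNA to interferon production. It was at 150.2, 177 and 134 CPM in the controls and at 70.8, 92.1 and 65.2 CPM without Crlf2 (log2 fold change -1.01, SE 0.18, adjusted p = 0.0354). Its call was lost without control 1 or 2 and without Crlf2-deleted 1 or 3 (adjusted p = 0.0859, 0.0922, 0.217 and 0.211).

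**Figure D3:**
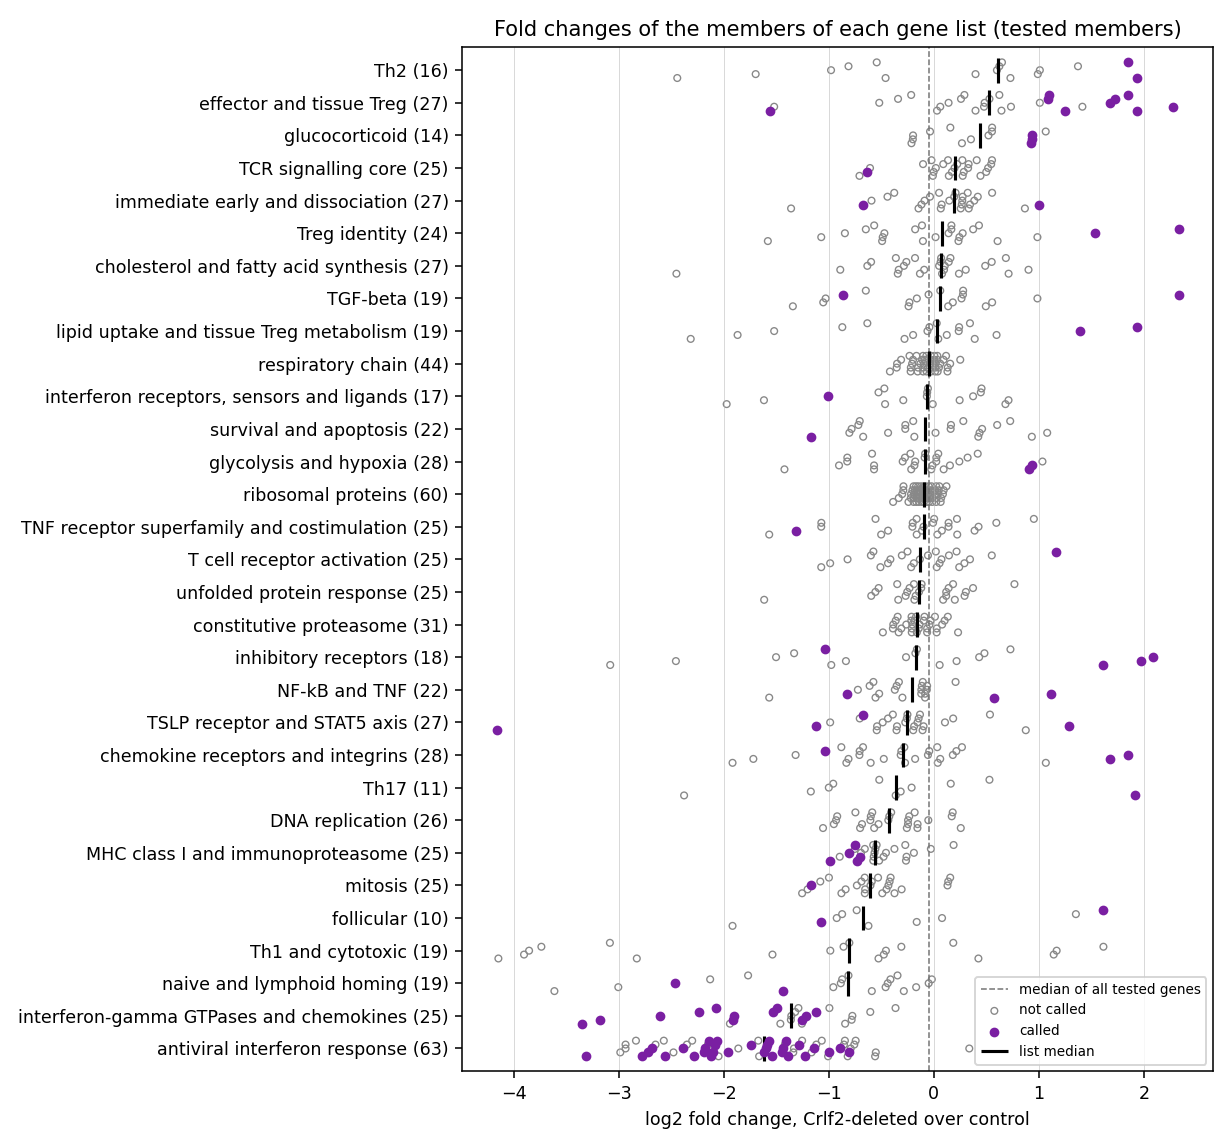
Log2 fold change (Crlf2-deleted over control) of every tested member of 31 gene lists, with the number tested in brackets, called genes filled and the list median as a bar. The antiviral interferon list (median -1.62) lies lowest and the Th2 list (0.61) highest, and the dashed line is the median of all tested genes (-0.04).

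Among genes of effector and tissue Tregs 8 of 27 were called higher and 1 lower, with a median log2 fold change of 0.53. Il10, the inhibitory cytokine interleukin-10, was at 42.9, 61.6 and 24.8 CPM in the controls and at 187, 193 and 219.9 CPM without Crlf2 (log2 fold change 2.27, SE 0.29, adjusted p = 0.016). Fgl2, a secreted fibrinogen-like protein through which Tregs restrain other T cells, was at 362, 375 and 257 CPM against 1159, 919.9 and 1189 CPM (log2 fold change 1.72, SE 0.17, adjusted p = 0.00762). Pparg, a nuclear receptor of fat-tissue Tregs and of alveolar macrophages, was at 8.96, 8.21 and 14.9 CPM against 49.7, 32.2 and 44.9 CPM (log2 fold change 1.93, SE 0.30, adjusted p = 0.0261). Each of these 3 genes was higher in all Crlf2-deleted libraries than in any control, as was every gene called higher. Klrg1, a receptor of terminally differentiated effector cells, Tigit, an inhibitory receptor, and Id2, a transcriptional regulator of effector cells, rose by a log2 of 1.25, 1.09 and 1.09 (SE 0.22, 0.21 and 0.15).

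The member called lower was the cytotoxic protease gene Gzmb. It was at 202, 221 and 189 CPM in the controls and at 58.0, 67.5 and 82.0 CPM without Crlf2 (log2 fold change -1.56, SE 0.16, adjusted p = 0.00762), and of the 6 fits without 1 library its call was lost in that without Crlf2-deleted 1 (adjusted p = 0.0719). Gata3, a factor of type 2 cells and of tissue Tregs, was at 864, 967 and 496 CPM against 1610.3, 1313 and 1752 CPM, did not overlap and was not called (log2 fold change 1.01, adjusted p = 0.0897). Without control 3 it passed (0.77, adjusted p = 0.0193). Areg, the repair factor amphiregulin, and Il1rl1, the interleukin-33 receptor, had log2 fold changes of 0.73 and 0.62 (adjusted p = 0.18 and 0.312). Without control 1, 2 or 3 the list held 1, 3 and 10 genes called higher, and without Crlf2-deleted 1, 2 or 3 it held 0, 7 and 0, with medians from 0.46 to 0.68.

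A marker list of type 2 innate lymphoid cells, which shares Klrg1, Il1rl1 and Il17rb with tissue Tregs, summed to 277, 375 and 308 CPM in the controls and to 686, 528 and 723 CPM without Crlf2. Its 2 called members were Klrg1 and Calca, and of its cytokine genes Il5 was at 0.802, 2.74 and 20.4 CPM in the controls and at 0.876, 1.84 and 1.83 CPM without Crlf2, and Il13 at 1.34, 2.05 and 6.15 CPM against 5.65, 6.57 and 7.73 CPM. Neither was called. The part of such cells in these results was not tested.

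Some homing receptors were higher and others lower. Ccr8, a chemokine receptor of skin, lung and tumour Tregs, was at 110.3, 155 and 95.0 CPM in the controls and at 474, 291 and 521 CPM without Crlf2 (log2 fold change 1.85, SE 0.26, adjusted p = 0.0196). Cxcr6, which holds T cells in tissue through Cxcl16, was at 71.5, 130.0 and 75.0 CPM against 293, 245 and 327 CPM (log2 fold change 1.67, SE 0.24, adjusted p = 0.0213). Ltb4r1, the leukotriene B4 receptor and a member of the Th17 list, was at 105, 116 and 113 CPM against 462, 269 and 522 CPM (log2 fold change 1.91, SE 0.23, adjusted p = 0.0129). Crlf2-deleted 2 was the lowest of its group in all 3 genes and above every control, as in every gene called higher. Gpr183, an oxysterol receptor that guides cells within lymphoid tissue, fell by 1.04 (141, 124 and 148 CPM against 69.6, 67.0 and 64.9 CPM, SE 0.13, adjusted p = 0.0143). Of 28 chemokine receptor and integrin genes 2 were higher and 1 lower (median -0.30, and 0.15 on the RPKM scale), and 2 were higher and 3 lower without control 3. Ccr4, another receptor of type 2 and skin-homing cells, went the other way from Ccr8 without being called, at 282, 302 and 158 CPM against 133, 151 and 137 CPM (log2 fold change -0.81, adjusted p = 0.13), and passed without control 3 (-1.05, adjusted p = 0.00335).

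Genes of naive and recirculating lymphocytes held lower members. All 19 tested genes had negative log2 fold changes (median -0.81), beside 6897 of all 12717 tested genes, and 2 were called. Ly6c1, a surface antigen that is also induced by interferon, was at 65.9, 70.5 and 85.0 CPM in the controls and at 13.4, 15.9 and 10.9 CPM without Crlf2 (log2 fold change -2.46, SE 0.21, adjusted p = 0.00465). It was highest in control 3, and without that library its log2 fold change was -2.34 (adjusted p = 0.0023). The list then held 4 called lower and its median moved to -0.48. Igfbp4 and Ly6c2 rested on control 3 more heavily, at 51.6, 38.3 and 201 CPM and 30.2, 30.1 and 167 CPM in the controls, and their log2 fold changes went from -2.13 and -3.61 to -1.01 and -2.24 without it (adjusted p = 0.0696 and 0.0105).

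Inhibitory receptors split into higher and lower members. Pdcd1, which encodes PD-1, was at 341, 421 and 174 CPM in the controls and at 1246, 1006 and 1402 CPM without Crlf2 (log2 fold change 1.97, SE 0.32, adjusted p = 0.0354). Lag3, a ligand of MHC class II, was at 64.7, 85.5 and 67.1 CPM against 265, 337 and 309 CPM (log2 fold change 2.08, SE 0.16, adjusted p = 0.00465). Tox2, a factor linked to PD-1 expression and to follicular helper cells, was at 38.5, 38.3 and 22.3 CPM against 96.5, 80.3 and 120.0 CPM (log2 fold change 1.61, SE 0.25, adjusted p = 0.0268). In these 3 genes control 3 was not the highest control. The groups did not overlap, as in all 227 called genes. Cd274, the PD-1 ligand PD-L1, which interferons induce, fell from 109, 103 and 95.3 CPM to 41.7, 65.1 and 43.0 CPM (log2 fold change -1.04, SE 0.20, adjusted p = 0.0459). The other 14 of 18 tested genes were not called, and the median was -0.17, or 0.20 without control 3. Cd244 and Cd160, receptors shared with NK cells, had negative log2 fold changes that rested on control 3. Cd244 was at 4.01, 4.79 and 72.3 CPM in the controls and 2.63, 5.85 and 1.51 CPM without Crlf2.

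Of 24 genes of Treg identity 2 were called higher, and the median was 0.08. Without control 3 the median was -0.15 and the calls were 2 higher (Itgb8 and Itgae) and 4 lower (Tnfrsf9, Nt5e, Socs2 and Ecm1). Itgb8, whose integrin releases active TGF-beta, was at 2.94, 5.47 and 3.60 CPM in the controls and at 19.0, 19.9 and 18.3 CPM without Crlf2 (log2 fold change 2.33, SE 0.35, adjusted p = 0.0232). Rgs16, a damper of chemokine receptor signalling, was at 36.1, 59.5 and 44.1 CPM against 146, 80.1 and 171 CPM (log2 fold change 1.54, SE 0.30, adjusted p = 0.0484), and its call was lost without control 3 (adjusted p = 0.0533). Foxp3 had a log2 fold change of 0.23 (adjusted p = 0.762) with all libraries and of -0.07 without control 3. Ctla4 and Ikzf2, which encodes Helios, were not called (log2 fold change 0.61 and -0.10). Tnfrsf9, the costimulatory receptor 4-1BB, was at 173, 159 and 82.5 CPM against 65.5, 59.1 and 71.8 CPM (log2 fold change -1.07, adjusted p = 0.0932) and passed without control 3 (-1.34, adjusted p = 0.00297). In the TGF-beta list, which also holds Itgb8, Furin, the protease that processes the TGF-beta precursor, fell by 0.86 (327, 343 and 368 CPM against 206, 149 and 216 CPM, SE 0.16, adjusted p = 0.0411). Without control 3 the TGF-beta list held 2 called higher and 1 lower.

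Of the helper cell programs, the Th2 list had 2 of 16 genes higher, Ccr8 and Pparg, and the follicular list Tox2 higher and Bcl6 lower. Without control 3 they held 3 higher and 2 lower, and 2 higher and 3 lower. Bcl6, the repressor that directs follicular cells, was at 35.4, 42.4 and 43.5 CPM in the controls and at 19.2, 20.3 and 18.2 CPM without Crlf2 (log2 fold change -1.07, SE 0.19, adjusted p = 0.0377). Il17rb, a receptor for interleukin-25, was at 10.7, 18.5 and 9.27 CPM against 39.4, 22.4 and 33.0 CPM and was not called (log2 fold change 1.37, adjusted p = 0.0935). By edgeR 0 of the 19 tested Th1 and cytotoxic genes were called (7 at an unadjusted p under 0.05, 3 by DESeq2). Of the 19, 14 had negative values (median log2 fold change -0.80), beside 6897 of all 12717 tested genes. Several of the largest negative values in the Th1 and cytotoxic list rested on control 3. Gzma, a granule protease, was at 10.0, 17.1 and 303 CPM in the controls and at 7.40, 7.45 and 4.49 CPM without Crlf2, and its log2 fold change of -4.14 became -1.03 without control 3. Prf1, perforin, went from -3.90 to -0.24 and Klrk1, an NK receptor, from -3.74 to -0.91. Il12rb2 kept more of its negative value, at -3.85 with all libraries and -2.78 without control 3 (adjusted p = 0.129). The list median was then -0.03, and 3 genes were called higher and 1 lower. NK cell markers summed to 428 CPM in control 3, as given above. Il12rb1, a chain of the interleukin-12 receptor, was at 256, 179 and 119 CPM against 94.6, 106 and 104 CPM and passed without control 3 (log2 fold change -1.10, adjusted p = 0.0112).

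**Figure D4:**
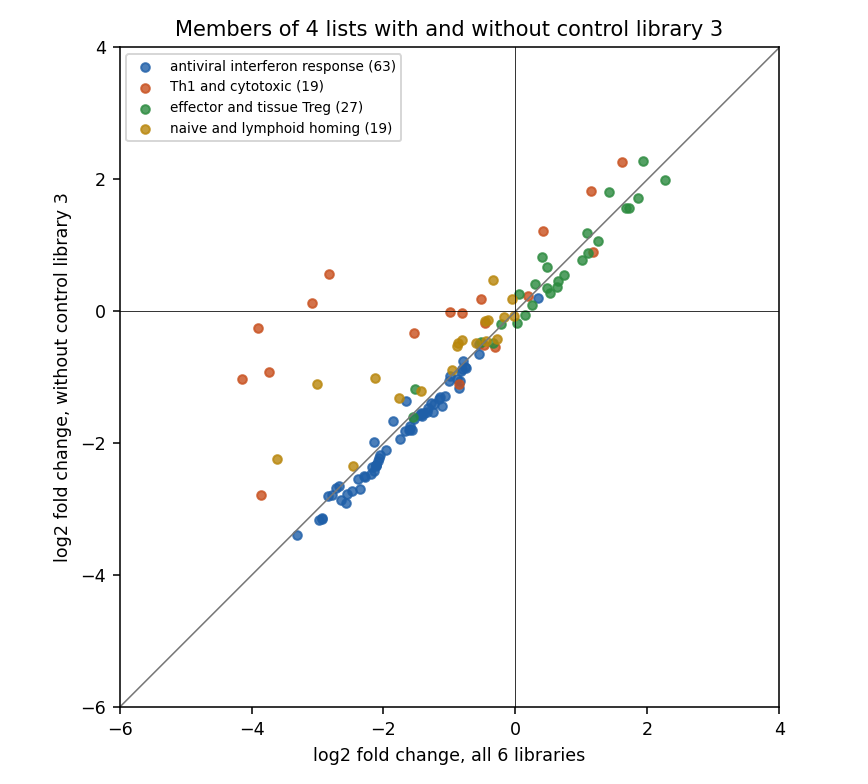
Log2 fold changes of the members of 4 lists with all 6 libraries (x) and without control 3 (y), with the line of equal values. Antiviral genes (blue) lie near or below the line. Some Th1 and cytotoxic genes (orange), such as Gzma (-4.14 and -1.03), lie well above it, and others, such as Il12rb1 (-0.86 and -1.10), below it.

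Signalling genes of NF-kB went both ways. Nfkb1, the p105 precursor, was at 116, 138 and 162 CPM in the controls and at 314, 231 and 359 CPM without Crlf2 (log2 fold change 1.12, SE 0.19, adjusted p = 0.0344). Tnfaip3, which encodes the inhibitor A20, rose by a log2 of 0.57 (SE 0.11, adjusted p = 0.0458) and Bcl3, an atypical IkB protein, fell by 0.83 (SE 0.15, adjusted p = 0.0403). The other 19 of 22 genes were not called. Among 25 T cell activation genes 14 had negative log2 fold changes, beside 6897 of all 12717 tested genes. Ubash3b, a phosphatase that restrains the T cell receptor, was the only call of the 25 (61.2, 97.8 and 84.9 CPM against 179, 154 and 208 CPM, log2 fold change 1.16, SE 0.20, adjusted p = 0.033). Ptprc, CD45, the phosphatase that primes that receptor, was the only call among 25 receptor signalling genes (605, 783 and 709.6 CPM against 459, 471 and 416 CPM, log2 fold change -0.64, SE 0.12, adjusted p = 0.0464). Cd86, a costimulatory ligand usually found on antigen-presenting cells, was the only call among 25 TNF receptor family and costimulation genes. It was at 21.4, 23.3 and 22.8 CPM in the controls and at 9.25, 9.85 and 8.09 CPM without Crlf2 (log2 fold change -1.31, SE 0.25, adjusted p = 0.047), and it kept its call in 0 of the 6 fits without 1 library (adjusted p = 0.0503 without control 3). Without control 3 the activation genes held 2 called higher and 1 lower, the receptor signalling genes 3 lower and the costimulation genes 1 lower, which was Tnfrsf9.

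Some genes of glucocorticoid responses were higher. Of 14 tested genes 3 were called higher (median 0.44). Nr3c1, the glucocorticoid receptor, was at 124, 125 and 97.2 CPM in the controls and at 234, 215 and 211 CPM without Crlf2 (log2 fold change 0.94, SE 0.14, adjusted p = 0.0232). Tsc22d3, which encodes GILZ, a glucocorticoid-induced inhibitor of NF-kB, was at 386, 449 and 545 CPM against 934, 749.8 and 934 CPM (log2 fold change 0.92, SE 0.15, adjusted p = 0.0319). Ddit4, an inhibitor of the growth kinase mTORC1, was at 68.6, 80.7 and 64.2 CPM against 160.5, 111 and 133 CPM (log2 fold change 0.93, SE 0.17, adjusted p = 0.0446). Without control 3, 8 of the 14 were higher (median 0.85). Without any other single library 0 or 1 gene was higher. Immediate early and dissociation genes, which respond to handling of tissue, had a median of 0.19, with the chaperone gene Hsph1 higher (log2 fold change 0.999, SE 0.15, adjusted p = 0.0242) and Socs3 lower. Without control 3 their median was 0.38 and 7 of 27 were higher. Fosl2 and Dusp1, 2 of these early response genes, were at 36.6, 36.9 and 63.5 CPM and 1095, 1212 and 1908 CPM in the controls and at 88.6, 74.4 and 90.6 CPM and 2269, 1743 and 2178 CPM without Crlf2, and both passed without control 3 (adjusted p = 0.0103 and 0.0117).

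Proliferation genes held 1 call, and 4 without control 3 (1 in replication and 3 in mitosis). Of 26 replication genes 23 and of 25 mitosis genes 22 had negative log2 fold changes (medians -0.43 and -0.60). Over all 12717 tested genes 6897 had negative values and 227 (1.79%) were called. At an unadjusted p under 0.05 were 9 replication and 10 mitosis genes, and DESeq2 called 2 and 4. Birc5, survivin, which acts in cell division and survival, fell from 81.7, 56.1 and 47.7 CPM to 27.9, 25.5 and 29.1 CPM (log2 fold change -1.17, SE 0.23, adjusted p = 0.046). Mki67, the proliferation antigen Ki-67, was at 87.9, 127 and 76.5 CPM against 65.3, 58.6 and 58.6 CPM and did not pass (log2 fold change -0.66, adjusted p = 0.156). Rrm2, a subunit of the enzyme that makes deoxynucleotides, was at 113, 135 and 62.7 CPM against 57.6, 65.1 and 60.4 CPM, with control 3 among the Crlf2-deleted values (adjusted p = 0.207, and 0.0113 without it). On the RPKM scale the medians were 0.01 and -0.10.

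Metabolic lists held few calls. In glycolysis and hypoxia Ero1l, an oxidase of the endoplasmic reticulum, rose (43.7, 52.7 and 50.1 CPM against 95.1, 83.9 and 94.2 CPM, log2 fold change 0.91, SE 0.15, adjusted p = 0.0285), as did Ddit4, and the list median was -0.09. Without control 3 this list held 3 called higher and 1 lower. Plin2, which coats lipid droplets, was at 83.2, 82.8 and 164 CPM in the controls and at 285, 259.7 and 329 CPM without Crlf2 (log2 fold change 1.39, SE 0.27, adjusted p = 0.0471). The lipid uptake list, which holds Plin2 and Pparg, had 2 called higher, and 4 without control 3. Of 44 respiratory chain genes, 60 ribosomal protein genes, 27 cholesterol and fatty acid synthesis genes and 25 genes of the unfolded protein response edgeR called 0, with medians of -0.05, -0.10, 0.06 and -0.14. At an unadjusted p under 0.05 they held 1, 4, 6 and 5 genes, and DESeq2 called 0, 0, 2 and 1. Without control 3 the last 2 medians turned to -0.05 and 0.08. The cholesterol and fatty acid list then held 1 called higher, Dhcr7, and 1 lower, Mvd (adjusted p = 0.0216 and 0.038). On the RPKM scale the 4 medians were 0.37, 0.33, 0.28 and 0.28. Plin2, Pparg and Gpnmb are also macrophage genes, and Chil3, Lyz2 and the summed monocyte and macrophage lists were higher in the Crlf2-deleted libraries than in control 1 and 2. Their part in these 3 results was not tested.

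The largest rises at 5 RPKM or more outside the lists of biology included secreted and membrane proteins. Calca, which encodes the neuropeptide CGRP, was at 3.88, 9.58 and 9.94 CPM in the controls and at 68.7, 40.8 and 66.8 CPM without Crlf2 (log2 fold change 2.96, SE 0.39, adjusted p = 0.0162). Cib2, a calcium- and integrin-binding protein, was at 6.15, 7.53 and 8.99 CPM against 46.2, 62.5 and 54.6 CPM (log2 fold change 2.84, SE 0.24, adjusted p = 0.00465). Gpnmb, a transmembrane glycoprotein of macrophages, was at 14.8, 32.8 and 30.2 CPM against 136, 229 and 141 CPM (log2 fold change 2.74, SE 0.34, adjusted p = 0.0151). In all 3 control 1 was the lowest control, and the groups did not overlap, as in all 227 called genes. Igfbp7, a secreted protein that binds insulin-like growth factors, was at 17.3, 10.3 and 15.6 CPM against 42.6, 58.6 and 71.8 CPM (log2 fold change 1.96, SE 0.27, adjusted p = 0.0181), and Podnl1, a secreted leucine-rich repeat protein, at 76.0, 112 and 62.2 CPM against 293, 298 and 349.6 CPM (log2 fold change 1.94, SE 0.21, adjusted p = 0.00995).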

How the data were processed

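RNA-seq of 6 lung Treg libraries was used. Per the submitters' processing notes, the reads were aligned to mm10 with TopHat2 2.2.1 and Bowtie2 2.2.6, the tools also including SAMtools 0.1.8, bedtools 2.25.0 and edgeR, and no role is given for each. The authors deposited read counts and RPKM values (reads scaled to transcript length and library total) for 31682 transcripts of 23992 gene symbols. The sources used here do not state the counting program, its strand and multimapping rules or the library kit of the lung samples, and overlapping and antisense genes cannot be separated. The transcript reads came to 21.2 to 33.8% of the total by which the deposited RPKM values had been divided.

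For the 4343 symbols with several transcripts, the transcript with most reads stood for the gene, since transcripts of a gene share reads. Genes were filtered with a minimum count of 10, scaled by TMM and tested with edgeR 4.0.16 (R 4.3.3, robust quasi-likelihood, two-sided) between the 3 control and 3 Crlf2-deleted libraries. P-values were adjusted by the Benjamini-Hochberg method over all tested genes, with a threshold of 0.05. The SE is the absolute log2 fold change divided by the square root of F. Alternatives used DESeq2 1.42.0, limma 3.58.1 on the log2 of the deposited RPKM values plus 1, other scalings, filters and spreads, a replicate block, removal of a length trend, and each library left out. The edgeR script was tested on simulated data, in which 100 genes were changed 2-fold and 100 changed 4-fold. It recovered 25 and 77 of them, with 1 false call among 103. A gene that was not called may therefore still differ. Replicates differed by more than sampling noise (chi-square per degree of freedom 15.2 to 161). The labels do not say that they came from separate animals, so p-values measure how these samples vary, and that variation may be technical. Control 2 (1439675 reads) gives the least precise values.

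Of 995 entries in 31 lists of biology and 20 marker lists, 985 were in the files. Members and lists were chosen with earlier results of these data known. Named genes were Crlf2, genes of the TSLP axis, the 15 largest rises and falls among non-overlapping called genes at 5 RPKM or more (leaving out predicted genes, antigen receptor segments, pseudogenes, histones and small RNAs), up to 8 members of each list by smallest p, and the markers at the highest CPM. Foxp3, Ctla4, Ikzf2, Areg, Il1rl1, Tigit, Irf9, Nt5e and the genes of the closing observations were chosen after their values were seen. Some results are not reported here. Promoter sequences are from RefSeq (GRCm38.p6).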

Additional observations from a re-analysis of the deposited data

How the results depend on the processing

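The 227 calls became 867 with DESeq2 (121 genes had no adjusted p), 856 with limma on RPKM, 873 with all 4 groups of the series in 1 fit, 96 with the length trend removed, and 4 to 532 with a library left out (the report names each). They stayed between 156 and 275 with median-of-ratios factors, library totals, other count filters, moderation that was not robust, the transcript chosen by lung reads, or without marker genes. Genes higher made up 43.2% of the calls, 70.6% with library totals and 89.0% with limma. With the replicate number as a block there were 121 calls, 26.5% of them higher. The labels do not say whether equal numbers pair the libraries. With the mean of each group removed, same-numbered libraries had correlations of 0.08, -0.15 and -0.04, and control 2 correlated best with Crlf2-deleted 3 (0.19). These values cannot decide on a pairing, since removing the group mean ties the correlations to each other and RNA of other cells enters them. Crlf2 was called in all 18 alternatives, between -4.47 and -3.84 with a library left out and at -2.89 with limma. Of the 81 genes named above that were called, 45 kept their call with the block, 44 with the length trend removed, 18, 15 and 79 without control 1, 2 or 3, and 4, 50 and 6 without Crlf2-deleted 1, 2 or 3. Genes that were not called changed sign as follows, and the cause was not tested. With limma, Cfl1 was at 0.037, Cish 0.32, Ikzf2 0.31, Il2ra 0.049, Il2rb 0.19, Il2rg 0.29, Jak2 0.010, Pfn1 0.083, Psma2 0.034, Stat5a 0.14 and Stat5b 0.30. With library totals, Cish was at 0.011, Ikzf2 0.049, Il2rg 0.033 and Stat5b 0.057. With a library left out, Cish ranged from -0.38 to 0.025, Ikzf2 from -0.40 to 0.094, Stat5b from -0.27 to 0.031 and Foxp3 from -0.066 to 0.47. Control 2 had the fewest reads, and the effect of its depth on the calls among low genes was not tested.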

Other observations

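The genes in this section were chosen after their values were seen. Several called genes encode parts of the actin and microtubule cytoskeleton, and those named here were lower without Crlf2 where they were called. Actb, beta-actin, was at 31898, 34227 and 29436 CPM in the controls and at 17865, 17715 and 19464 CPM in the Crlf2-deleted libraries (log2 fold change -0.80, SE 0.09, adjusted p = 0.00965). Actg1, gamma-actin, fell by 0.57 (SE 0.11), the actin-nucleating subunit gene Actr3 by 0.57 (SE 0.11), the actin-sequestering gene Tmsb10 by 0.60 (SE 0.10) and the tubulin gene Tuba1b by 0.59 (SE 0.10). Actin genes are near-identical in their coding parts, so reads may be split between them. Cfl1 and Pfn1, which turn over and charge actin, had log2 fold changes of -0.39 and -0.34 and were not called (adjusted p = 0.117 and 0.152), and Tmsb4x was at 0.14 (adjusted p = 0.605).

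Some genes of neuropeptide signalling and processing were called higher. Ramp1, the subunit that makes a CGRP receptor of Calcrl, was at 79.3, 92.4 and 124 CPM in the controls and at 253, 183 and 289 CPM without Crlf2 (log2 fold change 1.29, SE 0.22, adjusted p = 0.0332), while Calcrl itself was at 14.3, 19.2 and 29.8 CPM against 13.2, 15.3 and 13.6 CPM and was not called. Vipr2, a receptor for vasoactive intestinal peptide, was at 1.07, 2.74 and 3.22 CPM against 16.4, 10.3 and 21.7 CPM (log2 fold change 2.81, SE 0.53, adjusted p = 0.0446), and Scg5, a chaperone of peptide hormone processing, at 0.669, 0.684 and 1.51 CPM against 9.93, 15.2 and 10.3 CPM (log2 fold change 3.49, SE 0.52, adjusted p = 0.0232). Extracellular matrix genes were also among the rises at low levels: Col18a1, a basement membrane collagen, was at 4.15, 11.6 and 6.24 CPM against 61.2, 71.7 and 90.4 CPM (log2 fold change 3.52, SE 0.35, adjusted p = 0.00762), and Npnt, an integrin ligand, at 10.3, 10.3 and 6.53 CPM against 24.7, 23.1 and 35.0 CPM (log2 fold change 1.64, SE 0.31, adjusted p = 0.0446). Other interferon-induced restriction factors outside the lists fell too. Mov10, an RNA helicase, went from 186, 120.4 and 97.3 CPM to 43.1, 43.6 and 47.1 CPM (log2 fold change -1.60, SE 0.24, adjusted p = 0.0232) and Samhd1, which destroys deoxynucleotides, from 1169, 1110.5 and 801 CPM to 434, 554 and 416 CPM (log2 fold change -1.13, SE 0.18, adjusted p = 0.0261). Il6st, the signalling chain of interleukin-6 family receptors, fell from 144, 109 and 117 CPM to 51.1, 62.5 and 41.7 CPM (log2 fold change -1.26, SE 0.19, adjusted p = 0.0242).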
